A study of Mus musculus with 12 samples.

Results

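The genes described here are 10 genes of the NRF2 antioxidant system: the transcription factor gene Nfe2l2 and its inhibitor gene Keap1, the quinone reductase gene Nqo1, the thioredoxin genes Txn1 and Txnrd1, the peroxide-handling genes Prdx1, Prdx6, Srxn1 and Cat, and Osgin1. They were chosen by name from the 21899 genes of the deposited table. Each name matched 1 gene, and all 10 genes passed the filter on low counts that kept 11656 genes. RNA was sequenced from mouse bone marrow-derived macrophages, primary cells cultured from marrow, of wild-type genotype in every group. There were 4 groups of 3 libraries: untreated control, CS-PA/CNP alone, PgLPS alone, and PgLPS combined with CS-PA/CNP, which is called both agents below. The labels do not spell out these abbreviations. The sources used here give no dose, time, order of the agents, strain, sex or age. The labels speak of biological replicates but do not say whether libraries came from separate animals or cultures. The p-values therefore measure the spread between these libraries, which may be technical.

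NRF2, the protein of Nfe2l2, is a transcription factor that KEAP1 holds at a low level by handing it to a cullin ubiquitin ligase. Oxidants and electrophiles modify cysteines of KEAP1, NRF2 then accumulates, pairs with small MAF proteins and binds antioxidant response elements in its target genes. Much of this control acts on protein stability and is not seen in messenger levels. The targets include enzymes that reduce quinones, regenerate thioredoxin and peroxiredoxins, and supply glutathione and NADPH. In macrophages these enzymes handle the oxidants made during inflammatory activation.

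Levels are CPM, read counts per 1e6 of the library total multiplied by its TMM factor, a scaling that assumes most genes do not differ between libraries. A gene was called higher or lower at a Benjamini-Hochberg (BH) adjusted p under 0.05 over all 11656 genes in edgeR's quasi-likelihood test. Errors given with log2 fold changes are standard errors. Libraries held 14992707 to 20082900 reads, and the members had between 39 reads (Nqo1, in a control library) and 176027 reads (Prdx1, in a library of both agents). The control libraries had TMM factors of 1.147 to 1.161 and those with CS-PA/CNP of 1.115 to 1.124, whereas the range was 0.853 to 0.875 for PgLPS and 0.890 to 0.901 for both agents. Using library totals instead moved the median over all genes, in log2 units, by −0.41 for PgLPS against control and by −0.36 for both agents against control, and by less than 0.1 in the other comparisons. All 7 macrophage markers were detected. Their sum ran from 19716 to 21082 CPM in control libraries and from 22457 to 24061 CPM for CS-PA/CNP. It ran from 27270 to 29508 CPM for PgLPS and from 27314 to 28637 CPM for both agents. Most of the sum was Lyz2, at 14844 to 15985 CPM in control. Cd68, alone of the 7, was lower with PgLPS (1081 to 1295 CPM) than in control (1399 to 1568 CPM). Adgre1 was higher, at 3876 to 3976 CPM with PgLPS against 1028 to 1085 CPM. Erythroid markers, of cells rich in catalase and peroxiredoxins, summed to at most 0.581 CPM in any library, and Hba-a2 and Hbb-bt had no reads. Neutrophil markers summed to 62.5 to 96.0 CPM without PgLPS, 152 to 173 CPM with PgLPS and 121 to 134 CPM with both agents, nearly all from S100a8 and S100a9, while Ly6g stayed at or under 0.314 CPM. The part of neutrophil markers in the results below was not tested. PgLPS library 1 stood apart in stromal markers, whose 6 genes summed to 53.5 CPM there, to as little as 5.82 CPM in another PgLPS library and to at most 4.62 CPM in any library of the other groups. Without it, 6 members were still called higher and 1 lower with both agents than with PgLPS (all genes: 926 and 1010). Against control, 7 members were higher and 1 was lower with PgLPS when it was left out (all genes: 3659 and 3541). Over all genes, PgLPS library 2 differed from the other PgLPS libraries by a chi-square per gene of 17.4 and 9.85, against 5.55 between those, and library 2 of both agents differed by 12.2 and 13.7, against 2.94. These 2 libraries held the highest Txn1, Prdx1, Keap1, Nfe2l2 and Osgin1 values of their groups. Without PgLPS library 2, 7 members were higher and 1 lower with PgLPS than in control (all genes: 3654 and 3590). Both agents against PgLPS then had 6 members higher and 1 lower (all genes: 1117 and 1233). Without library 2 of both agents the last counts were again 6 and 1 (all genes: 1002 and 1112). Against control, 8 members were then higher and none lower with both agents (all genes: 3339 and 3179). Control library 1 differed from the other control libraries by a chi-square per gene of 8.38 and 6.8, against 2.77 between those. Without it, 7 members were higher and 2 lower with PgLPS than in control (all genes: 3455 and 3633).

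Stretches before the transcription start are shown for 6 members, because several share a spelling of the antioxidant response element. Sequences are from RefSeq on GRCm38.p6, which held starts for 9 of the 10 members (not Prdx6), and the window searched ran from 250 bases before to 50 bases after each start. Capitals mark TGACNNNGC or TGANTCAGC on either strand, and each line gives the 250 bases before the start, 5′ to 3′ along the gene. The regions are chr4:116685349-116685598 (plus strand) for Prdx1, chr2:152105274-152105523 (plus strand) for Srxn1, chr8:119436897-119437146 (plus strand) for Osgin1, chr2:75704664-75704913 (minus strand) for Nfe2l2, chr10:82858956-82859205 (plus strand) for Txnrd1 and chr8:107403206-107403455 (minus strand) for Nqo1. Of 3 starts listed for Txnrd1, the one with a match is shown.
Prdx1: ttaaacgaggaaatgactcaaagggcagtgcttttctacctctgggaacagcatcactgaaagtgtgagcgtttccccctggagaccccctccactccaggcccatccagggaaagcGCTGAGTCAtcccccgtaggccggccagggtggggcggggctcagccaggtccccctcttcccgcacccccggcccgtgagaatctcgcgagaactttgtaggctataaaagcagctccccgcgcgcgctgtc
Srxn1: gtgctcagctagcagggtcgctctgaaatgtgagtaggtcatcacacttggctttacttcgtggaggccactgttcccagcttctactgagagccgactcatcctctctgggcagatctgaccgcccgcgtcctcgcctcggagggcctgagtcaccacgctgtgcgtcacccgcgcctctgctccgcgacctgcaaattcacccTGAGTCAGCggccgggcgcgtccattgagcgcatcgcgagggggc
Osgin1: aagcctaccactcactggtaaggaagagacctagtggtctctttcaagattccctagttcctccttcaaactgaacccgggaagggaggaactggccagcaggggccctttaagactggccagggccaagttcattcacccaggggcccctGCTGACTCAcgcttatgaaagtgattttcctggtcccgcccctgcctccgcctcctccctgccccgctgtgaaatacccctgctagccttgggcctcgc
Nfe2l2: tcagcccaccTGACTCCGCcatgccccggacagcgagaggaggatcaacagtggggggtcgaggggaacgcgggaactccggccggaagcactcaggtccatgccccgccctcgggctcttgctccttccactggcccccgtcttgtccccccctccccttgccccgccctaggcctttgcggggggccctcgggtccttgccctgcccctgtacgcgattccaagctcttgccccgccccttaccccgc
Txnrd1: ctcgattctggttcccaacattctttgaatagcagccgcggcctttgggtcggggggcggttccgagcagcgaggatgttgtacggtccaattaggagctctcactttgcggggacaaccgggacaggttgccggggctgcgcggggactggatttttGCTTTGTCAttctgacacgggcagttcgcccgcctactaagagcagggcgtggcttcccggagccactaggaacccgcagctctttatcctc
Nqo1: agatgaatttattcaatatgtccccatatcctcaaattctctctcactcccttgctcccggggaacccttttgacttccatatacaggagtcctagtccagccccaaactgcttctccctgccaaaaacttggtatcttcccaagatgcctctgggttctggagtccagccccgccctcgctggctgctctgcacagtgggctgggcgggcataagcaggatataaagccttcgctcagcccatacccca

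TGACNNNGC (reverse complement GCNNNGTCA) was found for 4 of the 9 members, namely Prdx1, Txnrd1, Nfe2l2 and, 29 bases after its start, Srxn1. Counted by promoter, since Txnrd1 has 3, these were 4 of 11 member promoters, and 12.4% of all 32851 promoters of the same length held it. Another spelling, TGANTCAGC (reverse complement GCTGANTCA), added after these matches were seen, was found in Prdx1, Srxn1 and Osgin1, 3 of 11 member promoters, and in 1.19% of all promoters. In Srxn1 and Osgin1 its match lay where TGACNNNGC had none. TGANTCAGC contains TGANTCA, the letters of an AP-1 site, so an antioxidant response element and an AP-1 site cannot be told apart at these positions. The match began 133 bases before the start in Prdx1, 45 in Srxn1 and 99 in Osgin1. The looser TGANNNNGC (reverse complement GCNNNNTCA) was found for 6 of the 9 members, in 7 of 11 member promoters and in 41.3% of all promoters. In the Nqo1, Cat and Txn1 windows none of these spellings was found. A match is a description of letters and not a measured binding site.

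Per gene length, as CPM divided by the deposited length in kilobases, Prdx1 was the most abundant member in each group and Nqo1 the least. Each gene has 1 deposited length, and the spread over libraries given below does not include any error in it. In control, Prdx1 stood at 651.1 ± 25 CPM per kilobase (SD, n = 3), followed by Txn1 at 210.4 ± 18 and Cat at 209.7 ± 5.0, whose libraries overlapped. Srxn1 (91.6 ± 2.9), Txnrd1 (80.4 ± 1.5), Nfe2l2 (66.0 ± 1.4), Prdx6 (17.4 ± 1.1), Osgin1 (11.8 ± 1.6), Keap1 (7.66 ± 0.61) and Nqo1 (1.96 ± 0.53) came next in CPM per kilobase, each apart from its neighbour. Prdx1 reached 1518 ± 9.8 CPM per kilobase with CS-PA/CNP, 1657 ± 100 with PgLPS and 3188 ± 140 with both agents. Cat moved above Txn1 with CS-PA/CNP alone, at 438.8 ± 16 against 302 ± 17 CPM per kilobase. At the lower end Nqo1 came up to its neighbours where CS-PA/CNP was given: its libraries (9.84 ± 0.93) overlapped those of Keap1 (10.3 ± 0.35) with CS-PA/CNP alone, and those of Osgin1 with both agents (12.3 ± 2.3 against 13.4 ± 0.36 CPM per kilobase). The other neighbours that overlapped were Srxn1 and Nfe2l2 with PgLPS, and Srxn1 with Txnrd1 and Nfe2l2 with Prdx6 with both agents.

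**Figure D1:**
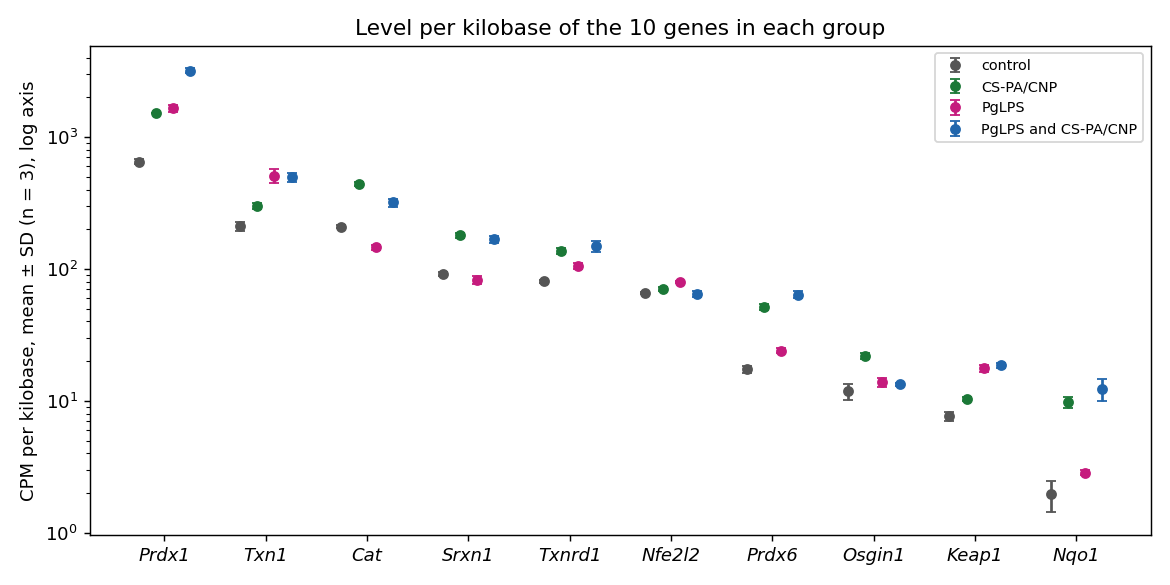
CPM per kilobase (log axis) of the 10 genes, ordered by their control level, with points for the group mean and bars for the SD over 3 libraries. Prdx1 lies highest in all 4 groups and Nqo1 lowest, at 1.96 CPM per kilobase in control and 12.3 with both agents.

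Of the regulators, Nfe2l2 (ENSMUSG00000015839, chromosome 2) moved little and Keap1 (ENSMUSG00000003308, chromosome 9) more. Nfe2l2 read 245, 251 and 256 CPM in the control libraries, 256, 277 and 269 with CS-PA/CNP, 304, 311 and 299 with PgLPS, and 242, 260.5 and 236 with both agents. With TMM scaling the PgLPS libraries were the highest and those of both agents overlapped control, whereas with library totals Nfe2l2 was called lower with PgLPS than in control (−0.13, edgeR BH-adjusted p = 0.0337). Keap1 read 33.1, 38.8 and 35.9 CPM in control, 49.2, 49.2 and 46.3 with CS-PA/CNP, 82.2, 88.3 and 78.5 with PgLPS, and 84.5, 92.1 and 86.7 with both agents. Its levels followed PgLPS, and the PgLPS libraries and those of both agents overlapped. A stretch of 209 bases of Keap1 is identical in an antisense gene, Gm16754, which is not in the count table, and the sources used here do not say whether counting used strand.

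Nqo1 (ENSMUSG00000003849, chromosome 8) encodes a quinone reductase that is a standard readout of NRF2 activity. It read 3.82, 3.12 and 2.18 CPM in control, 15.2, 13.9 and 16.8 with CS-PA/CNP, 4.65, 4.29 and 4.38 with PgLPS, and 21.5, 15.0 and 20.6 with both agents. All 6 libraries with CS-PA/CNP lay above all 6 without. Osgin1 (ENSMUSG00000074063, chromosome 8), a growth inhibitor gene induced by oxidative stress, had another pattern. It read 27.9, 36.3 and 30.7 CPM in control, 56.3, 56.8 and 62.0 with CS-PA/CNP, 34.4, 40.3 and 37.0 with PgLPS, and 35.4, 37.0 and 35.3 with both agents. The libraries with CS-PA/CNP alone stood apart, and the other 3 groups overlapped one another.

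Thioredoxin, the protein of Txn1 (ENSMUSG00000028367, chromosome 4), reduces disulfides in other proteins, and the selenoprotein thioredoxin reductase of Txnrd1 (ENSMUSG00000020250, chromosome 10) returns it to its active form with NADPH. Txn1 read 199, 229 and 235 CPM in control, 303, 312 and 337 with CS-PA/CNP, 491, 615 and 504 with PgLPS, and 497, 566 and 497 with both agents. Its 6 libraries with PgLPS lay above the rest, and PgLPS with and without CS-PA/CNP overlapped. Txnrd1 read 582, 561 and 566 CPM in control, 1029, 927 and 969 with CS-PA/CNP, 783, 702 and 750.2 with PgLPS, and 1076, 947 and 1142 with both agents. Here the libraries with CS-PA/CNP were the high ones, whether or not PgLPS was given. Txn1 resembles the processed pseudogene Txn-ps1 (95.8% identity over 309 bases), so its reads may be shared with that copy, which is not in the count table. Txnrd1 overlaps Eid3, which had 4 to 31 reads per library in the same table.

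Peroxiredoxins reduce hydrogen peroxide, and sulfiredoxin, the protein of Srxn1, repairs over-oxidised peroxiredoxins of the Prdx1 type. Prdx1 (ENSMUSG00000028691, chromosome 4) read 1893, 2017 and 2034 CPM in control, 4601, 4654 and 4604 with CS-PA/CNP, 4799, 5396 and 4935 with PgLPS, and 9492, 10184 and 9426 with both agents. Each agent alone went with a higher level and the libraries of both agents were highest. With TMM scaling there was no overlap between any of the 4 groups. CS-PA/CNP and PgLPS lay close, with a highest library of 4654 and a lowest of 4799 CPM, and were not compared by a test. Prdx6 (ENSMUSG00000026701, chromosome 1), which also has phospholipase activity, read 81.6, 79.0 and 89.5 CPM in control, 256, 234 and 255 with CS-PA/CNP, 112, 122 and 113 with PgLPS, and 319.5, 286 and 315 with both agents. With TMM scaling the 4 groups of Prdx6 did not overlap either. For PgLPS against control, Prdx6 stood at a log2 fold change of 0.06 with library totals (edgeR BH-adjusted p = 0.429). The control and PgLPS libraries did not overlap for 66.4% of all tested genes, and those of control and both agents for 63.1%. The share was 31.4% for control and CS-PA/CNP, and also for PgLPS and both agents. Prdx1 has near copies in the processed pseudogenes Gm21399 (98.3% identity over 597 bases) and Gm7204 (97.5% over 597 bases), which are not in the count table.

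Srxn1 (ENSMUSG00000032802, chromosome 2) read 251, 257 and 267 CPM in control, 523, 482 and 516 with CS-PA/CNP, 216, 235 and 249 with PgLPS, and 476, 445 and 497 with both agents. Catalase, the protein of Cat (ENSMUSG00000027187, chromosome 2), breaks down hydrogen peroxide in peroxisomes. Cat read 549.8, 534 and 560.2 CPM in control, 1192, 1107 and 1141 with CS-PA/CNP, 383, 365 and 398 with PgLPS, and 854, 766 and 882 with both agents. Srxn1 and Cat were high in all 6 libraries with CS-PA/CNP, and their PgLPS libraries lay below control. Of all tested genes, 66.4% did not overlap between control and PgLPS, in either direction. Cat was called lower with PgLPS and Srxn1 was not (edgeR BH-adjusted p = 0.0527). In bulk RNA, fewer cells with a transcript and less of it per cell cannot be told apart.

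**Figure D2:**
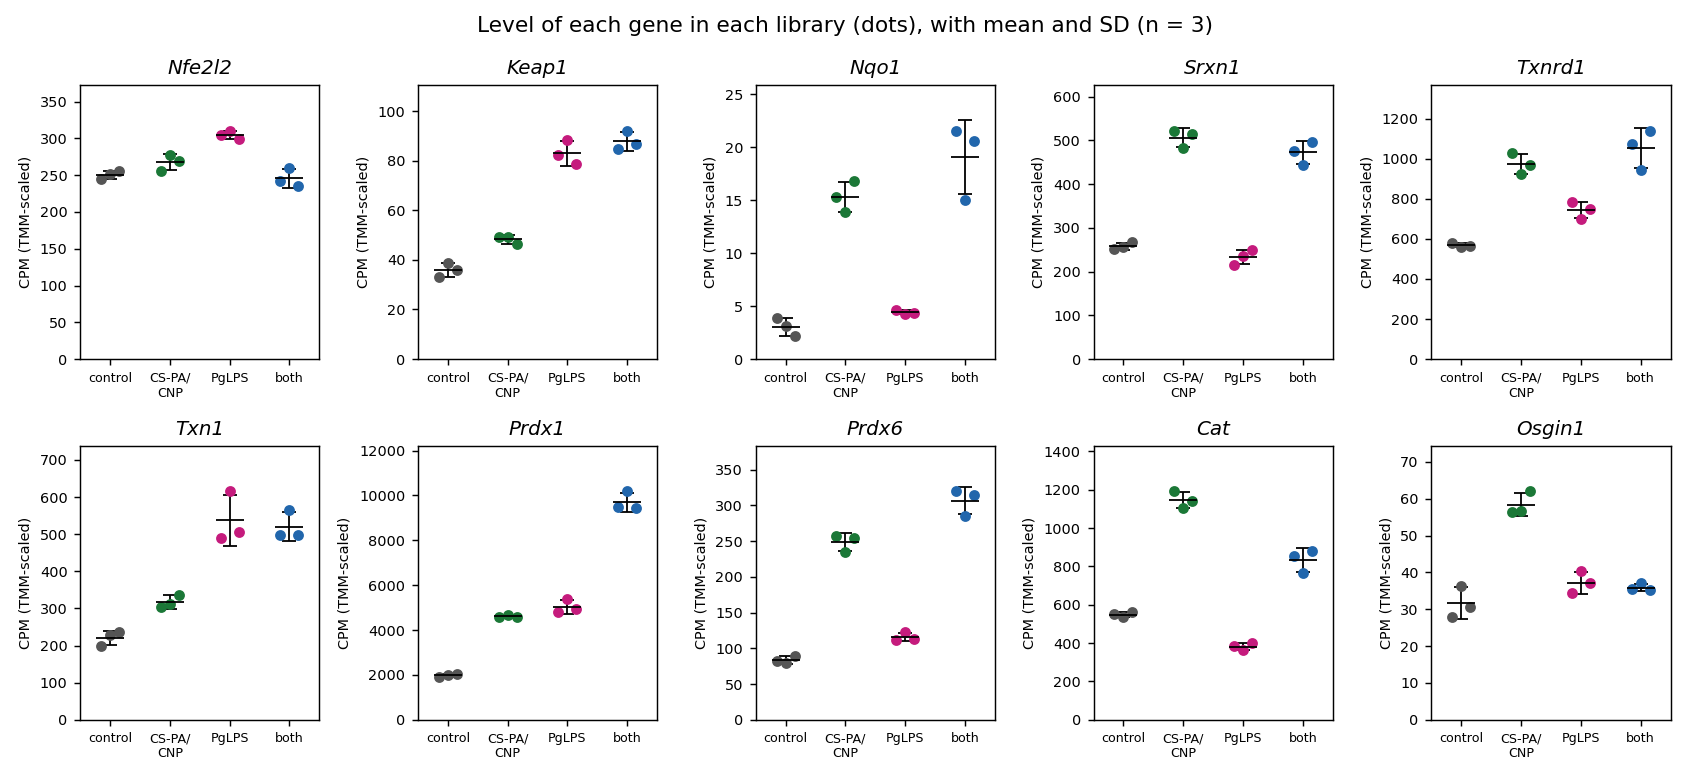
CPM of each gene in each library (dots, linear axis from 0), with the mean and SD of the 3 libraries as bars, for control, CS-PA/CNP, PgLPS and both agents. Nqo1, Srxn1, Txnrd1, Prdx6 and Cat are high in both groups with CS-PA/CNP, Txn1 and Keap1 in both groups with PgLPS, Osgin1 with CS-PA/CNP alone, and Prdx1 most with both agents.

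The first comparison, CS-PA/CNP alone against control, addresses the effect of the material in the absence of PgLPS. Of the 10 members 9 were higher and none was lower, where 6.67% of all tested genes were called higher and 5.61% lower. The median log2 fold change was 0.93 for the members and 0.00 for all tested genes. Nqo1 rose most, by 2.32 ± 0.18 on the log2 scale (edgeR BH-adjusted p = 4.11e-08). Prdx6 rose 2.98-fold (1.58 ± 0.07, edgeR BH-adjusted p = 1.5e-11), Prdx1 2.33-fold (1.22 ± 0.05, edgeR BH-adjusted p = 1.53e-11) and Cat 2.09-fold (1.06 ± 0.06, edgeR BH-adjusted p = 5.36e-10). Srxn1 rose by 0.97 ± 0.06, Osgin1 by 0.88 ± 0.09 and Txnrd1 by 0.77 ± 0.07. The increases of Txn1 (0.52 ± 0.08, edgeR BH-adjusted p = 2.89e-04) and of the inhibitor gene Keap1 (0.42 ± 0.08, edgeR BH-adjusted p = 7.71e-04) were smaller. Nfe2l2 itself was not called, at 0.09 ± 0.06 (95% interval −0.02 to 0.21, edgeR BH-adjusted p = 0.336), although its control and CS-PA/CNP libraries did not overlap, as in 31.4% of all tested genes. Rises made up 54.3% of all calls with TMM and 42.0% with library totals. The same 9 members were called under all 17 alternatives.

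PgLPS against control asks how the macrophages responded to PgLPS alone. With TMM scaling 8 members were higher and 1 lower, where 32.2% of all tested genes were called higher and 31.6% lower. The median was 0.43 for the members and 0.00 for all genes. Libraries of the 2 groups did not overlap for 9 of the 10 members, and for 66.4% of all tested genes. Prdx1 rose 2.55-fold (log2 1.35 ± 0.05, edgeR BH-adjusted p = 5.14e-14), Txn1 2.43-fold (1.28 ± 0.09, edgeR BH-adjusted p = 1.53e-10) and Keap1 2.31-fold (1.21 ± 0.08, edgeR BH-adjusted p = 5.75e-11). Cat fell by 0.52 ± 0.06 on the log2 scale (edgeR BH-adjusted p = 3.16e-07). These 4 genes kept their direction and call with library totals, at 0.93, 0.86, 0.79 and −0.94. The remaining rises were small and depended on the scaling. Prdx6 rose by 0.47 ± 0.07 and stood at 0.06 with library totals (edgeR BH-adjusted p = 0.429). Txnrd1 rose by 0.39 ± 0.07 with TMM and stood at −0.03 with library totals (edgeR BH-adjusted p = 0.72), and Nfe2l2 rose by 0.28 ± 0.06 with TMM and was lower with library totals (−0.13, edgeR BH-adjusted p = 0.0337). Rises made up 50.5% of all calls with TMM and 21.8% with library totals.

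For Nqo1, Osgin1 and Srxn1 the call in this comparison also depended on single libraries. Nqo1 was called higher at 0.54 ± 0.21 (edgeR BH-adjusted p = 0.0324, with alternatives from 0.012 to 0.61). The call was lost without control library 2 (0.0708), control library 3 (0.187, with a log2 fold change of 0.33), PgLPS library 1 (0.0726) or PgLPS library 3 (0.0633), with only these 2 groups in the fit (0.0666) and with library totals (0.609). Osgin1 was called higher at 0.23 ± 0.09 (edgeR BH-adjusted p = 0.0372, with alternatives from 0.0061 to 0.25) with overlapping libraries, and stood at −0.18 with library totals. Its call was lost under 10 of 17 alternatives, among them the omission of control library 1 (0.249) or 3 (0.144), of PgLPS library 2 (0.146) or 3 (0.0716) and of CS-PA/CNP library 1 (0.0642), 2 (0.0671) or 3 (0.0617), as edgeR BH-adjusted p. Srxn1 was not called at −0.14 ± 0.06 (edgeR BH-adjusted p = 0.0527, with alternatives from 2.2e-07 to 0.22), while its PgLPS libraries all lay below control. It was called lower under 10 of 17 alternatives, including library totals (−0.56), DESeq2 (BH-adjusted p of 0.05 when rounded) and the omission of control library 1 (0.0316), PgLPS library 3 (0.0227), library 2 of both agents (0.0374) or CS-PA/CNP library 1 (0.0328), 2 (0.0307) or 3 (0.0371).

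**Figure D3:**
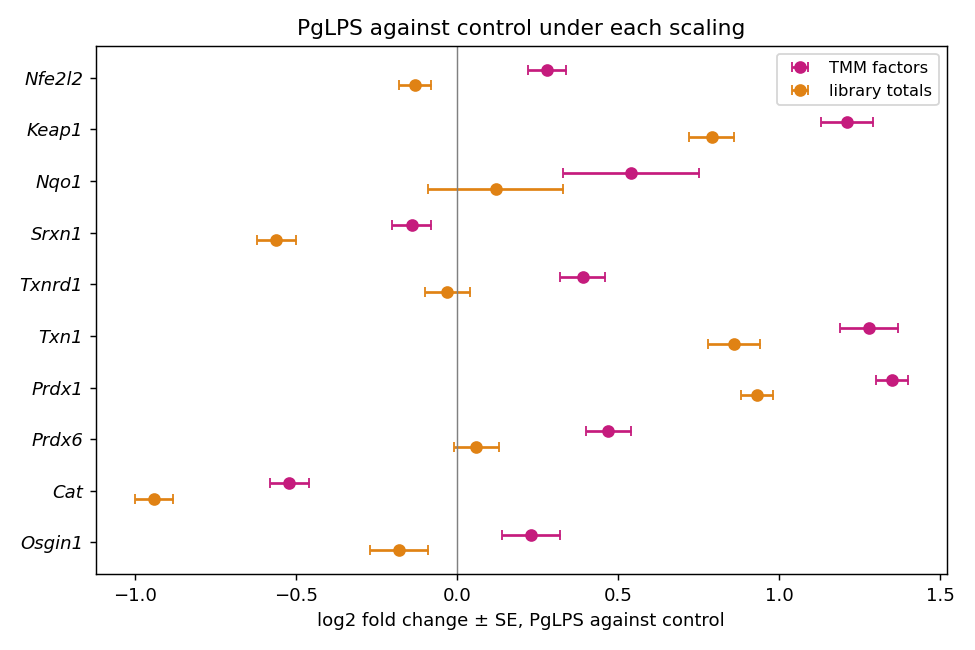
Log2 fold change of PgLPS against control for the 10 genes, with the standard error, using TMM factors (upper point of each pair) or library totals (lower point). Prdx1, Txn1 and Keap1 lie above 0 and Cat below 0 under each scaling, while Nfe2l2 moves from 0.28 to −0.13.

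The second effect of the material is that in PgLPS-treated cells, read from both agents against PgLPS. Of the 10 members 6 were higher, 1 was lower and 3 were not called, where 9.42% of all tested genes were called higher and 10% lower. No overlap between the libraries was seen for 7 members, and for 31.4% of all tested genes. The median was 0.72 for the members and −0.01 for all tested genes. Nqo1 again had the largest rise among the members, 4.28-fold (log2 2.10 ± 0.18, edgeR BH-adjusted p = 6.28e-08). Prdx6 rose 2.65-fold (1.40 ± 0.07, edgeR BH-adjusted p = 6.29e-11), Cat 2.18-fold (1.13 ± 0.06, edgeR BH-adjusted p = 1.81e-10) and Srxn1 2.02-fold (1.02 ± 0.06, edgeR BH-adjusted p = 1.24e-09). Prdx1 rose by 0.94 ± 0.05 and Txnrd1 by 0.50 ± 0.07. Nfe2l2 fell by 0.31 ± 0.06 on the log2 scale (edgeR BH-adjusted p = 4.89e-04), from 305 ± 5.7 to 246 ± 13 CPM (SD, n = 3), while 6 members rose. Keap1 (0.08 ± 0.07, 95% interval −0.07 to 0.23), Txn1 (−0.05 ± 0.08, −0.22 to 0.13) and Osgin1 (−0.05 ± 0.09, −0.25 to 0.15) were not called. The 7 calls and the 3 genes without one were the same under all 17 alternatives, and rises made up 48.4% of all calls with TMM and 61.4% with library totals.

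The interaction is the log2 effect of the material in PgLPS-treated cells minus that in cells without PgLPS, and tests whether the 2 effects differ. It was called lower for 5 members and higher for none, where 8.34% of all tested genes were called lower and 7.46% higher. Osgin1 had the largest difference, −0.94 ± 0.13 (edgeR BH-adjusted p = 4.14e-05): it rose 1.84-fold without PgLPS and stood at 0.964-fold with it. Txn1 differed by −0.57 ± 0.12 (edgeR BH-adjusted p = 0.00229), Nfe2l2 by −0.40 ± 0.08 (edgeR BH-adjusted p = 0.00119) and Prdx1 by −0.28 ± 0.07 (edgeR BH-adjusted p = 0.0142). Osgin1, Txn1 and Nfe2l2 kept the call under all 16 alternatives, and Prdx1 lost it with library totals alone (−0.19, edgeR BH-adjusted p = 0.0667). Keap1 was called at −0.34 ± 0.11 (edgeR BH-adjusted p = 0.0328, with alternatives from 0.0079 to 0.12). Keap1 was no longer called with library totals (0.116), with no filter (0.0526) and without control library 1 (0.108) or 3 (0.0814), CS-PA/CNP library 1 (0.0911) or 2 (0.0893), PgLPS library 2 (0.0753) or library 1 (0.0849) or 3 (0.0676) of both agents.

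For the other 5 members the interaction was not called, and the intervals limit how far the responses could differ. The 95% interval was −0.14 to 0.23 for Srxn1, −0.11 to 0.24 for Cat, −0.37 to 0.03 for Prdx6 and −0.77 to 0.32 for Nqo1, the widest interval of the 10 members. Txnrd1 stood at −0.27 ± 0.09 (95% interval −0.47 to −0.08, edgeR BH-adjusted p = 0.0546, with alternatives from 0.0043 to 0.24). It was called under 5 of 16 alternatives: with no filter (0.035), by DESeq2 (0.046), with the column numbers as a replicate block (0.00427), and without PgLPS library 2 (0.0229) or library 3 of both agents (0.0217). Positive differences made up 47.2% of all interaction calls with TMM and 63.7% with library totals.

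**Figure D4:**
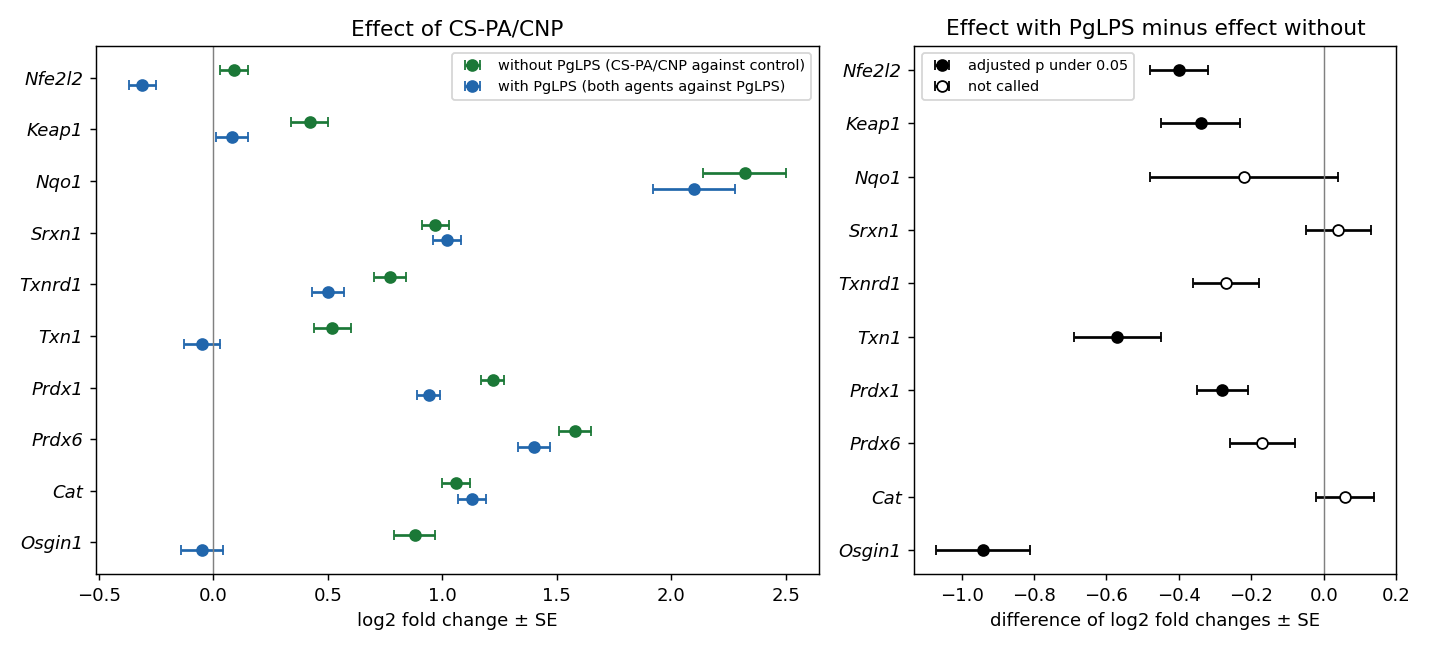
Left, log2 fold change with standard error for CS-PA/CNP against control and for both agents against PgLPS. Right, the difference between the 2 effects with its standard error, filled where the adjusted p was under 0.05: the points for Osgin1 (−0.94), Txn1 (−0.57), Nfe2l2 (−0.40), Keap1 (−0.34) and Prdx1 (−0.28) are filled and lie below 0.

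Both agents against control gives the combined change. Of the 10 members 8 were higher and none lower, where 29.7% of all tested genes were called higher and 28.4% lower. The libraries did not overlap for 8 members and for 63.1% of all tested genes, and the median was 1.06 for the members and −0.01 for all genes. Nqo1 stood 6.21-fold above control (log2 2.64 ± 0.18, edgeR BH-adjusted p = 2.94e-10) and Prdx1 4.90-fold (2.29 ± 0.06, edgeR BH-adjusted p = 3.29e-17). Prdx6 rose 3.68-fold, Keap1 2.44-fold and Txn1 2.35-fold. Cat, which was lower with PgLPS alone, was 1.52-fold above control with both agents (0.61 ± 0.06, edgeR BH-adjusted p = 4.71e-08). Srxn1 rose by 0.87 ± 0.06 and Txnrd1 by 0.89 ± 0.07. With library totals these 8 members kept their calls at lower values, among them Cat at 0.24, Srxn1 at 0.51 and Txnrd1 at 0.53. Nfe2l2 (−0.03 ± 0.06) and Osgin1 (0.18 ± 0.09, edgeR BH-adjusted p = 0.108, with alternatives from 0.018 to 0.48) were not called. With library totals Nfe2l2 was called lower (−0.39, edgeR BH-adjusted p = 4.64e-06) and Osgin1 stood at −0.18 without a call, and Osgin1 was called without control library 2 (0.0175). Rises made up 51.1% of all calls with TMM and 21.3% with library totals. The comparisons with control share the control libraries, and those with PgLPS share the PgLPS libraries with opposite sign.

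Among 12 regulators of NRF2 (its ligase subunits, partners and antagonists), all tested, 4 rose and none fell with CS-PA/CNP alone, with a median of 0.08. The counts of this and the following lists stand beside all tested genes, of which 6.67% were higher and 5.61% lower with CS-PA/CNP alone, 9.42% and 10% with both agents against PgLPS, 29.7% and 28.4% with both agents against control, and 7.46% and 8.34% in the interaction. Sqstm1, an autophagy receptor that binds KEAP1, rose by 0.75 ± 0.06, from 721 ± 52 to 1209 ± 33 CPM, and the small MAF gene Mafg by 0.29 ± 0.06. Syvn1, a ubiquitin ligase of the endoplasmic reticulum, rose by 0.30 ± 0.08, a call lost without control library 1 (edgeR BH-adjusted p = 0.0554) or 3 (0.0607) or CS-PA/CNP library 1 (0.117). With PgLPS alone 9 of the 12 rose and none fell (median 0.40), where 32.2% of all tested genes rose and 31.6% fell. Counts and medians of this and the following lists are with TMM scaling and were not repeated with library totals. Library totals moved the median over all genes by −0.41 in this comparison and by −0.36 for both agents against control. Nfe2l1, a factor related to NRF2 that controls proteasome genes, rose by 1.16 ± 0.06 and Mafk by 0.71 ± 0.08, and Sqstm1 rose by 0.44 ± 0.06, or stood at 0.02 without a call with library totals. With both agents against PgLPS 3 rose and 1 fell (median −0.05). Sqstm1 rose by 0.62 ± 0.06 and Mafk by 0.28 ± 0.08 (edgeR BH-adjusted p = 0.0149, or 0.0935 when library 1 of both agents was left out), and Nfe2l1 fell by 0.30 ± 0.06, from 464 ± 7.6 to 376 ± 18 CPM. Against control, 9 were higher with both agents (median 0.32), with Sqstm1 at 1.06 ± 0.06 and Nfe2l1 at 0.86 ± 0.06 on the log2 scale and Mafk 2.0-fold above control.

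In the interaction 3 of the 12 regulators were lower and none higher (median −0.10). Nfe2l1 and Mafg differed by −0.41 ± 0.08 each. Maff was called at −0.59 ± 0.20 (edgeR BH-adjusted p = 0.0491), a call lost under 10 of 16 alternatives. They were library totals, no filter, and the omission of any control library (edgeR BH-adjusted p of 0.0995, 0.106 and 0.0814), any CS-PA/CNP library (0.129, 0.0732 and 0.0886), PgLPS library 3 (0.157) or library 2 of both agents (0.119).

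Of 23 other thioredoxin, glutaredoxin, peroxiredoxin and related genes 21 were tested, and Prdx6b and Msrb3 were not. With CS-PA/CNP alone 2 rose and 2 fell (median 0.06). Prdx5, a peroxiredoxin of mitochondria and peroxisomes, rose by 0.54 ± 0.07 and Msrb1, a methionine sulfoxide reductase, by 0.52 ± 0.08, while Sesn3 fell by 0.69 ± 0.17 on the log2 scale, a call lost without control library 2 (edgeR BH-adjusted p = 0.0575) or CS-PA/CNP library 3 (0.0556). With PgLPS alone 6 of the 21 rose and 12 fell (median −0.21), beside 32.2% of all tested genes higher and 31.6% lower. Prdx5 rose by 2.99 ± 0.08, from 212 ± 15 to 1688 ± 170 CPM, Glrx, glutaredoxin, by 2.51 ± 0.06, and the sestrin gene Sesn1 fell by 1.85 ± 0.11. With both agents against PgLPS 6 rose and 2 fell (median 0.15). There Prdx5 fell by 0.56 ± 0.07, to 1143 ± 49 CPM, whereas Prdx1 and Prdx6 rose, and Sesn1 rose by 1.07 ± 0.11 and Txnrd3 by 0.78 ± 0.18. Against control 9 were higher and 9 lower with both agents (median −0.01), with Prdx5 at 2.43 ± 0.07, Glrx at 2.28 ± 0.06 and Msrb1 at 1.10 ± 0.08. In the interaction 2 were higher and 3 lower (median 0.18), with Sesn1 at 1.41 ± 0.15, Prdx5 at −1.10 ± 0.10 and Msrb1 at −0.52 ± 0.12.

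Of 27 other NRF2 targets 25 were tested, and Gsta4 and Gpx2 were not. With CS-PA/CNP alone 22 rose and none fell (median 0.68). Gclm, the modifier subunit of the glutathione synthesis enzyme, rose by 1.39 ± 0.06, from 265 ± 4.5 to 693 ± 30.0 CPM, Gsr, glutathione reductase, by 0.87 ± 0.06 and Pgd, an NADPH-making enzyme of the pentose phosphate pathway, by 0.85 ± 0.05. With PgLPS alone 12 of the 25 rose and 8 fell (median 0.06), beside the same 32.2% and 31.6% of all tested genes, with Slc7a11, the cystine transporter, at 4.57 ± 0.20, Gsr at 1.91 ± 0.06 and the ferritin gene Fth1 at 1.48 ± 0.07. With both agents against PgLPS 18 rose and 1 fell (median 0.48). Cbr3, a carbonyl reductase, rose 2.46-fold, Gclm on the log2 scale by 1.10 ± 0.06 and Taldo1, transaldolase, by 0.99 ± 0.06. Against control 22 were higher and 2 lower with both agents (median 0.83), with Hmox1, haem oxygenase, at 2.15 ± 0.07, Gsr at 1.60 ± 0.06 and Gclm at 1.51 ± 0.06. In the interaction 2 were higher and 7 lower (median −0.15), with Slc7a11 at −2.03 ± 0.25, Gsr at −1.18 ± 0.08 and Fth1 at −0.70 ± 0.09. These lists and the members were chosen with earlier results of these data known, so their counts are descriptions.

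Likeness to Nqo1 and Nfe2l2 was ranked among tested genes other than the members, by Pearson's r of log2 CPM over the 12 libraries. Genes named Gm plus digits, Rik names and genes without a symbol were also left out. Among the genes ranked, those most like Nqo1 were Gclm (0.983), Hsp90b1 (0.967), Pgd (0.966), Canx (0.966) and Ptgr1 (0.966). Ptgr1 averaged 41.3 CPM in control, 140.2 with CS-PA/CNP, 67.2 with PgLPS and 185 with both agents. Hsp90b1 went from 429 to 632 CPM between control and CS-PA/CNP, and Canx from 563 to 668. Those most like Nfe2l2 among the genes ranked were Stard7 (0.934), Zdhhc24 (0.897), Creg2 (0.894), Ier2 (0.878) and Ldha (0.877). Ldha, lactate dehydrogenase A, averaged 729.6 CPM in control, 753 with CS-PA/CNP, 858 with PgLPS and 649.6 with both agents. The 12 points of each r share 4 groups and the scaling of their libraries.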

How the data were processed

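RNA of 12 mouse macrophage libraries was sequenced on a NovaSeq instrument from fragments of 400 to 500 bp after 15 PCR cycles, per the labels' protocols. The authors deposited 1 table of read counts per gene, whole numbers without normalization, with gene lengths. DESeq 1.30.0, HTSeq 0.9.1, HISAT2 2.0.5 and cutadapt 1.15 appear in the submitters' processing notes without roles. Build, annotation and strandedness were not given in the sources used here, and the table's coordinates are not printed. Columns were assigned to groups by their letters (C control, M CS-PA/CNP, L PgLPS, LM both). Which replicate of the labels a column is was not shown, and library numbers are those of the column names. The 12 columns of values already normalized to length were not used.

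Counts were tested with edgeR 4.0.16 in R 4.3.3 in 1 fit of all 12 libraries with a mean per group, TMM and filterByExpr (11656 genes, 99.97% of reads), 2-sided, over 5 comparisons. Standard errors are the log2 fold change over the square root of its F, and 95% intervals use that fit's degrees of freedom. The alternatives were library totals, DESeq2 1.42.0, no filter, only the compared groups, a replicate block and each library left out. The fit was tested on simulated counts. Near copies were sought with BLAST 2.17.0 in GENCODE M21 transcripts (95% identity over at least 200 bases). Likeness used log2(CPM + 0.5) and left out the members, genes named Gm plus digits, Rik names and genes without a symbol. The members, the lists and the rule for named genes (all members, up to 3 genes with the smallest adjusted p per list and comparison, and the 5 genes most like Nqo1 and Nfe2l2) were chosen with earlier results of these data known.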

Additional observations from a re-analysis of the deposited data

Results flagged for a closer look

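For 5 members the effect of CS-PA/CNP differed between cells with and without PgLPS by the interaction test. Of all tested genes, 8.34% were called lower and 7.46% higher in it. The Keap1 call was lost under 9 of 16 alternatives, and the Prdx1 call with library totals. The difference of log2 fold changes, with PgLPS minus without, was −0.94 for Osgin1, −0.57 for Txn1, −0.40 for Nfe2l2, −0.34 for Keap1 and −0.28 for Prdx1. Osgin1 and Txn1 were higher than control with CS-PA/CNP alone, and neither was called with both agents against PgLPS. Nfe2l2 was lower with both agents than with PgLPS. Prdx1 rose in each setting, by 1.22 without PgLPS and 0.94 with it on the log2 scale.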

How the results depend on the processing

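Of 840 log2 fold changes of members under alternatives, 788 kept direction and call, 26 lost the call, 17 gained one and 9 changed sign; without library totals these were 749, 22, 15 and 4 of 790. With library totals, PgLPS against control had 3 members higher and 3 lower (all genes: 1945 and 6963). Under that scaling, both agents against control had 8 members higher and 1 lower (all genes: 1808 and 6683). The interaction then had no member higher and 3 lower (all genes: 1255 and 715). Sign changes with library totals were Nfe2l2 −0.13, Txnrd1 −0.03 and Osgin1 −0.18 for PgLPS against control, Txn1 0.01 for both agents against PgLPS, and Osgin1 −0.18 for both agents against control. For PgLPS against control 2 members were lower with no filter, with the replicate block and with DESeq2, because Srxn1 passed. The genes lower in these 3 settings were 3901, 3874 and 3637 over all genes. When 1 library was left out, 1 to 2 members were lower (all genes: 3372 to 3806). Leaving out 1 library gave 406 (without CS-PA/CNP library 3) to 763 genes lower with CS-PA/CNP than control, and 417 without control library 1, against 654 with all libraries. It moved uncalled values across 0: for both agents against PgLPS, Txn1 ranged from −0.11 to 0.06 and Osgin1 from −0.10 to 0.01, for both agents against control Nfe2l2 from −0.07 to 0.00, and for the interaction Srxn1 from −0.01 to 0.09. The causes were not tested.

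The labels do not say that column numbers pair libraries. Deviations of same-numbered libraries correlated at −0.0906 to 0.325, over 0.1 in 9 of 18 pairs, against −0.263 to 0.144 and 6 of 36 pairs with different numbers. A library correlated best with its own number in 21 of 36 choices among the 3 libraries of another group, and 3 of 12 libraries did so in every group, a hint from the data of a partly shared number. With the replicate block, 48 of 50 member values kept direction and call, Srxn1 (PgLPS against control, edgeR BH-adjusted p = 0.0157) and Txnrd1 (interaction, edgeR BH-adjusted p = 0.00427) gained one, and CS-PA/CNP against control had 1099 genes higher and 934 lower in place of 777 and 654. A planned check against normalized values of the table was not run, as those columns were not used. Nqo1 had the fewest reads of the members, 39 to 73 in control libraries.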

Other observations

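Correlations between members are given as Pearson's r of log2 CPM over the 12 libraries, which share 4 groups. Keap1, the inhibitor, and Txn1, thioredoxin, had r = 0.98. Nqo1 and Prdx6 also had r = 0.98, Txnrd1 and Prdx6 0.97, Nqo1 and Txnrd1 0.96, Srxn1 and Cat 0.95, Nqo1 and Srxn1 0.93, and Srxn1 and Prdx6 0.92. Osgin1 had its highest value with Cat, at 0.65. Nfe2l2 had its highest value among the members with Txn1, at 0.44, and its lowest with Cat, at −0.56, and its values with Nqo1 and Srxn1 were −0.35 and −0.49. Cat and Prdx1, both enzymes that remove hydrogen peroxide, had r = 0.29.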
